A study of Mus musculus with 4 samples.

Results

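The genes described here are 10 mouse genes that carry a peptide from the proteasome to an MHC class I molecule at the cell surface: Tap1, Tap2, Tapbp, B2m, Psmb8, Psmb9, Psmb10, Nlrc5, H2-K1 and H2-D1. They were chosen by name, and their probe sets are those that the platform annotation assigns to exactly 1 of these genes. This gave 27 probe sets of the 34,945 on the array that carry a single gene symbol, and 10 genes of 18,193. Another 12 probe sets name several H2 genes at once, and they are kept apart from the members. With 2 arrays per group, the transporter genes Tap1 and Tap2 and several probe sets of the heavy chains H2-D1 and H2-K1 read 1.4-fold to 2.10-fold higher in Myc-depleted than in control cells, and B2m read slightly lower. Other heavy chain probe sets differed less, overlapped or went the other way, Psmb9 read slightly higher near the testing threshold, Tapbp and Psmb10 overlapped, and Psmb8 and Nlrc5 were too dim to test. No member passed the threshold after adjustment over the array.

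The study read total RNA of bronchoalveolar stem cells (BASCs) on 4 Affymetrix expression arrays for the mouse, which measure messenger RNA in a single colour. BASCs were sorted from lungs of ICR mice aged 4 to 6 weeks as CD31neg, CD45neg, CD34pos and Sca-1pos cells and grown on irradiated mouse embryonic fibroblasts; the study's results place the established cells on collagen instead. The first group is control BASCs (2 arrays, called wild type in the study). The second is c-Myc depleted BASCs (2 arrays). The study made stable lines with lentiviruses that carry short hairpin RNAs against c-Myc and with puromycin, and used 2 different hairpins. It does not state which hairpin each array carries, or that the arrays are of the stable lines. The vectors also carry EGFP, and it is not stated for the arrays whether control cells received a virus or puromycin, so infection and selection cannot be told apart from depletion. Nor is it stated whether a group's arrays are separate cultures, so p-values measure array-to-array spread that may be technical. ICR is an outbred stock whose H2 haplotype is not given, and H2-K1 and H2-D1 are among the most polymorphic genes of the mouse, so a probe may not match the allele of these cells.

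Class I molecules show fragments of the cell's own proteins to CD8 T cells. Proteins are cut by the proteasome, whose standard catalytic subunits are replaced by Psmb8, Psmb9 and Psmb10 when cells meet interferon. The TAP transporter, made of Tap1 and Tap2, moves the peptides into the endoplasmic reticulum, where tapasin (Tapbp) holds the heavy chain (H2-K1 or H2-D1) and beta-2 microglobulin (B2m) ready to be loaded. Nlrc5 is a transactivator that drives many of these genes together. Their promoters hold known elements for interferon regulatory factors, NF-kB and the RFX complex, and Myc with its partner Max binds E-boxes.

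Promoter stretches of 5 members are shown first, because the readings of these genes are compared below. Matches to interferon and NF-kB motifs lie in the first 3 stretches, and the fourth holds no match. The sequences are those of RefSeq for mouse assembly GRCm38.p6, and 8 of the 10 members matched an entry. Each of the first 3 stretches runs over the 250 bases before a start site and is written 5′ to 3′ on the strand of its gene. The fourth is the stretch between the starts of Psmb9 and Tap1, a neighbouring pair transcribed in opposite directions, written in the direction of Tap1. Capitals mark matches to the motifs searched.
H2-K1, chr17:34000348-34000597, minus strand: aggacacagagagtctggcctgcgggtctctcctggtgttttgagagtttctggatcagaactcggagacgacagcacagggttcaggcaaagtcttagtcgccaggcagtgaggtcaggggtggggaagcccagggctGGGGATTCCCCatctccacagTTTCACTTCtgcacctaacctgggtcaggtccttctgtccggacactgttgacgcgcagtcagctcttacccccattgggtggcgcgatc
H2-D1, chr17:35262844-35263093, plus strand: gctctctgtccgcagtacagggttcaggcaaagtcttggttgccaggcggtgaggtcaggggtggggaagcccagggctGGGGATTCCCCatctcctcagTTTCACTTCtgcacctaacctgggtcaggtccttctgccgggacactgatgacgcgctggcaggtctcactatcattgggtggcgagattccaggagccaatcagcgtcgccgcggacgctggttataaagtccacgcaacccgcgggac
B2m, chr2:122147437-122147686, plus strand: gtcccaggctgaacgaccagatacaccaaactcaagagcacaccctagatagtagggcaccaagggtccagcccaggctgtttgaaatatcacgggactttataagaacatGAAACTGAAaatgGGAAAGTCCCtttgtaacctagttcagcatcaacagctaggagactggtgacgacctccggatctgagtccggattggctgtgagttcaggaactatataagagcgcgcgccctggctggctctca
Psmb9 to Tap1, chr17:34187331-34187555, plus strand: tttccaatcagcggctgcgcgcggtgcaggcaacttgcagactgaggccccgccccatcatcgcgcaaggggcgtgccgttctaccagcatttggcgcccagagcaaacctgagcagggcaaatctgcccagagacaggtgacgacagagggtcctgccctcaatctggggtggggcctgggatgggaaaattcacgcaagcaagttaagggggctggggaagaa

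The H2-K1 and H2-D1 stretches resembled each other closely, with 166 of 190 aligned bases identical (87.4%). Both held an NF-kB consensus followed downstream by the interferon response core GAANNGAAA, which reads TTTCACTTC on the strand printed. The B2m stretch held the same kinds of element in the reverse order, with the core GAAANNGAA ahead of the NF-kB match. All motifs were searched on both strands in windows from 250 bases before to 50 bases after a start. In H2-K1 the NF-kB match began at position -111 and the interferon core at -90. In H2-D1 they began at -171 and -150, and in B2m at -126 and -139. Overlapping letters gave 2 NF-kB matches, shifted by a base, in each heavy chain gene, and the NF-kB and interferon matches did not overlap.

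These short motifs are not rare. The NF-kB consensus was found in 8.46% of the 32,851 windows, GAAANNGAA in 8.56% and GAANNGAAA in 7.52%. GAANNGAAA was added after the heavy chain sequences had been seen. The E-box CACGTG, which 7.15% of windows held, was matched in Psmb10, starting at -116. The letters of these motifs were not in the windows of Tap1, Psmb9, Psmb8 and Tapbp. Tap2 and Nlrc5 are named only. A match is a run of letters and not evidence of binding.

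**Figure D1:**
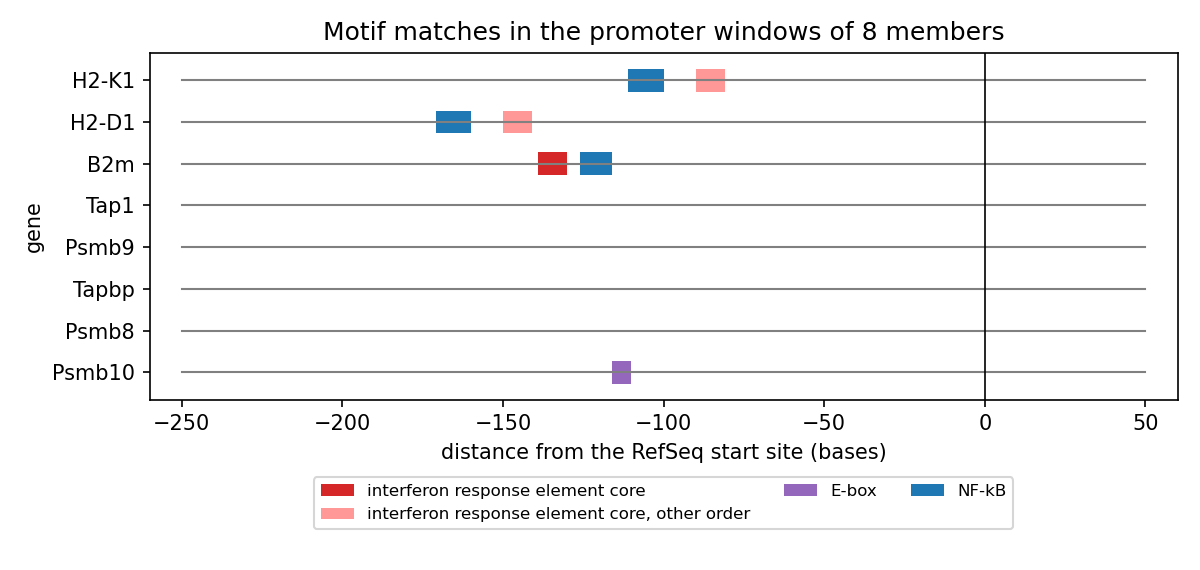
Motif matches (coloured boxes) in the RefSeq promoter windows of 8 class I genes, with the distance from the start site in bases on the x axis and 1 line per gene. H2-K1 and H2-D1 carry an NF-kB match followed by an interferon core, B2m carries both in the other order, and the lines of Tap1, Psmb9, Tapbp and Psmb8 are empty.

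Values below are log2 expression values, each of 1 probe set, and differences are Myc-depleted minus control. Levels are compared between arrays within a probe set and not between probe sets. Groups are said not to overlap when both arrays of a group lie above both arrays of the other. The arrays are of bulk cells, so fewer cells of a type and less RNA per cell cannot be told apart. Myc itself read 9.21 and 9.69 in control cells and 8.35 and 8.50 in the cells labelled Myc-depleted, without overlap. The difference of -1.02 ± 0.21 (SE) left 49.2% of the control level and had an adjusted p of 0.36 in limma, with -0.71 in the low and -1.33 in the high of the array pairs described next.

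Across the array, 0 of 27,022 probe sets tested (0%) reached an adjusted p under 0.05 in limma, the smallest being 0.110, and the ANOVA named in the methods also gave 0 after adjustment. At an unadjusted p under 0.05 limma counted 2726 and the ANOVA 2521. The limma count was 705 without control 1 and 936 without control 2. Poly-A spike-in controls, read at their 3′ and 5′ ends, split the arrays into pairs that hold 1 array of each group. The 3′ minus 5′ difference was 1.91 on control 1 and 1.80 on Myc-depleted 2, against 3.10 on control 2 and 3.58 on Myc-depleted 1. Differences within these pairs, called the low and the high pair, are plotted for every tested member probe set, and those of the main readings are given in the text.

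Tap1 and Tap2, the pair of chains that form the peptide transporter, read higher in Myc-depleted cells. Tap2 read 7.02 and 7.28 on the control arrays and 8.48 and 7.96 on the Myc-depleted arrays. The groups did not overlap, and Myc-depleted 1 was the highest array. The difference was 1.07 ± 0.23 (SE), or 2.10-fold (limma unadjusted p = 0.010, adjusted p = 0.38), and it was 0.95 in the low pair and 1.20 in the high pair. Tap1 read 5.61 and 5.88 in control cells and 6.48 and 6.41 in Myc-depleted cells. Here too the groups did not overlap, and the Myc-depleted arrays lay close together. Tap1 differed by 0.70 ± 0.15 (SE), or 1.63-fold (unadjusted p = 0.009, adjusted p = 0.37), with 0.81 and 0.60 within the pairs. The other 3 probe sets of Tap1 lay between 3.32 and 4.03, below the level at which probe sets were tested (log2 5.08). One of them, 1448177_at, also had both Myc-depleted arrays (3.82 and 4.03) above both controls (3.74 and 3.63), and the other 2 overlapped. Tap1 thus rests on a single tested probe set, as does Tap2.

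Tapasin, which bridges the transporter and the empty heavy chain, showed no separation. Its brighter probe set read 8.86 and 9.40 in control cells and 9.92 and 9.10 in Myc-depleted cells, with overlapping groups. The difference of 0.38 ± 0.37 (SE, adjusted p = 0.81) became -0.032 without Myc-depleted 1. The second probe set read 5.92 and 5.24 against 5.37 and 5.93 (difference 0.07, adjusted p = 0.97). Both probe sets followed the spike-in pairs and not the groups: the brighter was high on control 2 and Myc-depleted 1, the dimmer on control 1 and Myc-depleted 2. Within the pairs the brighter set differed by 0.24 and 0.52.

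Among the interferon-induced proteasome subunits, only Psmb9 had groups that did not overlap. Psmb9, which replaces Psmb6, read 4.99 and 4.93 in control cells and 5.39 and 5.13 in Myc-depleted cells, a difference of 0.30 ± 0.14 (SE, adjusted p = 0.58). It was 0.15 in the low pair and 0.46 in the high pair, and 0.17 without Myc-depleted 1. Its control mean of 4.96 lay under the testing threshold, so it was tested on the strength of the Myc-depleted arrays. Psmb10, which replaces Psmb7, read 7.78 and 7.53 against 7.68 and 7.81. Its groups overlapped, and the difference of 0.09 ± 0.15 (adjusted p = 0.91) turned to -0.036 without control 2. Psmb8, which replaces Psmb5, was dim on all arrays, at 4.91 and 4.89 in control cells and 4.97 and 4.86 in Myc-depleted cells for the first of its 2 probe sets. The second lay between 4.84 and 4.97, and neither was tested.

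The standard subunits that these replace showed no separation of the groups. Psmb5 read 11.1 on both control arrays and 11.1 and 11.2 in Myc-depleted cells, a difference of 0.03. Psmb6 read 11.4 and 11.3 in control cells and 11.3 and 11.4 in Myc-depleted cells, a difference of 0.01. Psmb7 read 11.1 and 10.9 against 10.8 and 11.4, a difference of 0.11. All 3 had overlapping groups and adjusted p-values from 0.93 to 0.99. Psmb9 thus read 0.30 higher where its counterpart Psmb6 differed by 0.01, but the difference between the 2 was not tested.

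B2m, the light chain that every classical class I molecule needs, was the only member whose representing probe set read lower in Myc-depleted cells. It read 12.25 and 12.19 in control cells and 11.87 and 12.09 in Myc-depleted cells, and the second probe set read 12.00 and 11.81 against 11.44 and 11.77. On both the groups did not overlap, although Myc-depleted 2 lay within 0.10 and 0.04 of the nearest control array. The differences were -0.24 ± 0.14 and -0.31 ± 0.17 (SE), or 84.6% and 80.9% of the control level, with adjusted p-values of 0.64 for both. The first was -0.16 in the low pair, -0.32 in the high pair and -0.13 without Myc-depleted 1. Direction was therefore the same on both B2m probe sets and opposite to that of the transporter.

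The heavy chain H2-D1 read higher in Myc-depleted cells without overlap on 4 of its 6 tested probe sets, against 22.5% of all probe sets. It read lower on 1, against 18.5%. The representing probe set, 1425545_x_at, read 9.41 and 9.15 in control cells and 9.77 and 9.78 in Myc-depleted cells. This is a difference of 0.50 ± 0.14 (SE), or 1.41-fold (unadjusted p = 0.024, adjusted p = 0.43), with 0.37 in the low pair and 0.63 in the high pair. Both Myc-depleted arrays were above both controls and almost equal to each other. The probe set with the largest difference, 1451683_x_at, read 6.51 and 6.29 against 7.07 and 7.14, which is 1.63-fold (unadjusted p = 0.006, adjusted p = 0.35). Probe set 1451784_x_at read 8.93 and 8.63 against 9.38 and 9.35 (1.5-fold, adjusted p = 0.40). On all 3 probe sets control 2 was the lowest array, followed by control 1.

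The other tested H2-D1 probe sets varied. Probe set 1426324_at, with a difference of 0.27 and groups that did not overlap, read 5.56 and 5.73 in control cells and 6.02 and 5.81 in Myc-depleted cells. Probe set 1427651_x_at had overlapping groups (difference 0.04). Probe set 1452544_x_at went the other way, at 5.78 and 5.73 in control cells and 5.36 and 5.45 in Myc-depleted cells, a difference of -0.35 ± 0.11 (SE, unadjusted p = 0.037, adjusted p = 0.46). The remaining 3 H2-D1 probe sets lay between 4.24 and 5.12, with means below the testing threshold. Of these, 1450170_x_at read 5.005 and 4.95 in control cells and 5.07 and 5.12 in Myc-depleted cells, higher without overlap, and the other 2 overlapped. Names that end in _x_at mark probes that may also match other sequences, which for heavy chains includes related H2 genes, so a probe set of this kind cannot be tied firmly to 1 gene.

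H2-K1, the second classical heavy chain, was read by 4 probe sets that did not share a direction. Probe set 1451931_x_at read 8.24 and 8.05 in control cells and 8.74 on both Myc-depleted arrays, a difference of 0.59 ± 0.13 (SE), or 1.51-fold (unadjusted p = 0.010, adjusted p = 0.38), with 0.50 and 0.69 within the pairs. The brightest, 1425336_x_at, which represents the gene, read 8.94 and 8.97 against 9.12 and 8.995, so the groups were separate by a narrow margin (difference 0.10, adjusted p = 0.85). That difference was 0.04 without Myc-depleted 1 and 0.16 without Myc-depleted 2. Probe set 1427746_x_at was lower in Myc-depleted cells, at 7.49 and 7.34 against 7.19 and 7.28 (difference -0.18, adjusted p = 0.71), and 1450534_x_at had overlapping groups. Over both heavy chains, 6 of the 10 tested probe sets read higher without overlap, against 22.5% of all probe sets tested. Another 2 read lower, against 18.5%, and 2 overlapped.

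Of the 4 tested probe sets that name several H2 genes, 3 read higher in Myc-depleted cells without overlap, against 22.5% of all probe sets, and 1 lower, against 18.5%. The only tested one that names a member, shared by H2-K1 and H2-D1, read 7.29 and 7.27 in control cells and 7.07 and 7.23 in Myc-depleted cells (difference -0.13, adjusted p = 0.80), and the other 2 that name a member were below the threshold. A probe set shared by H2-T23 and H2-T-ps, non-classical class I genes, read 8.47 and 8.74 against 9.15 and 9.18, a difference of 0.56 ± 0.14 (SE, unadjusted p = 0.018, adjusted p = 0.40). H2-T23 encodes Qa-1, a non-classical molecule that is recognised by receptors of natural killer cells. A probe set shared by H2-T9, H2-T22 and H2-T10 read 9.58 and 9.50 against 9.70 and 9.88 (difference 0.25, adjusted p = 0.61), and a second one for these genes differed by 0.09 (adjusted p = 0.86).

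Nlrc5, the class I transactivator, was dim on every array, at 4.01 and 4.23 in control cells and 4.19 and 4.11 in Myc-depleted cells. Its groups overlapped and it lay below the testing threshold, so a difference in Nlrc5 was not measurable here.

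**Figure D2:**
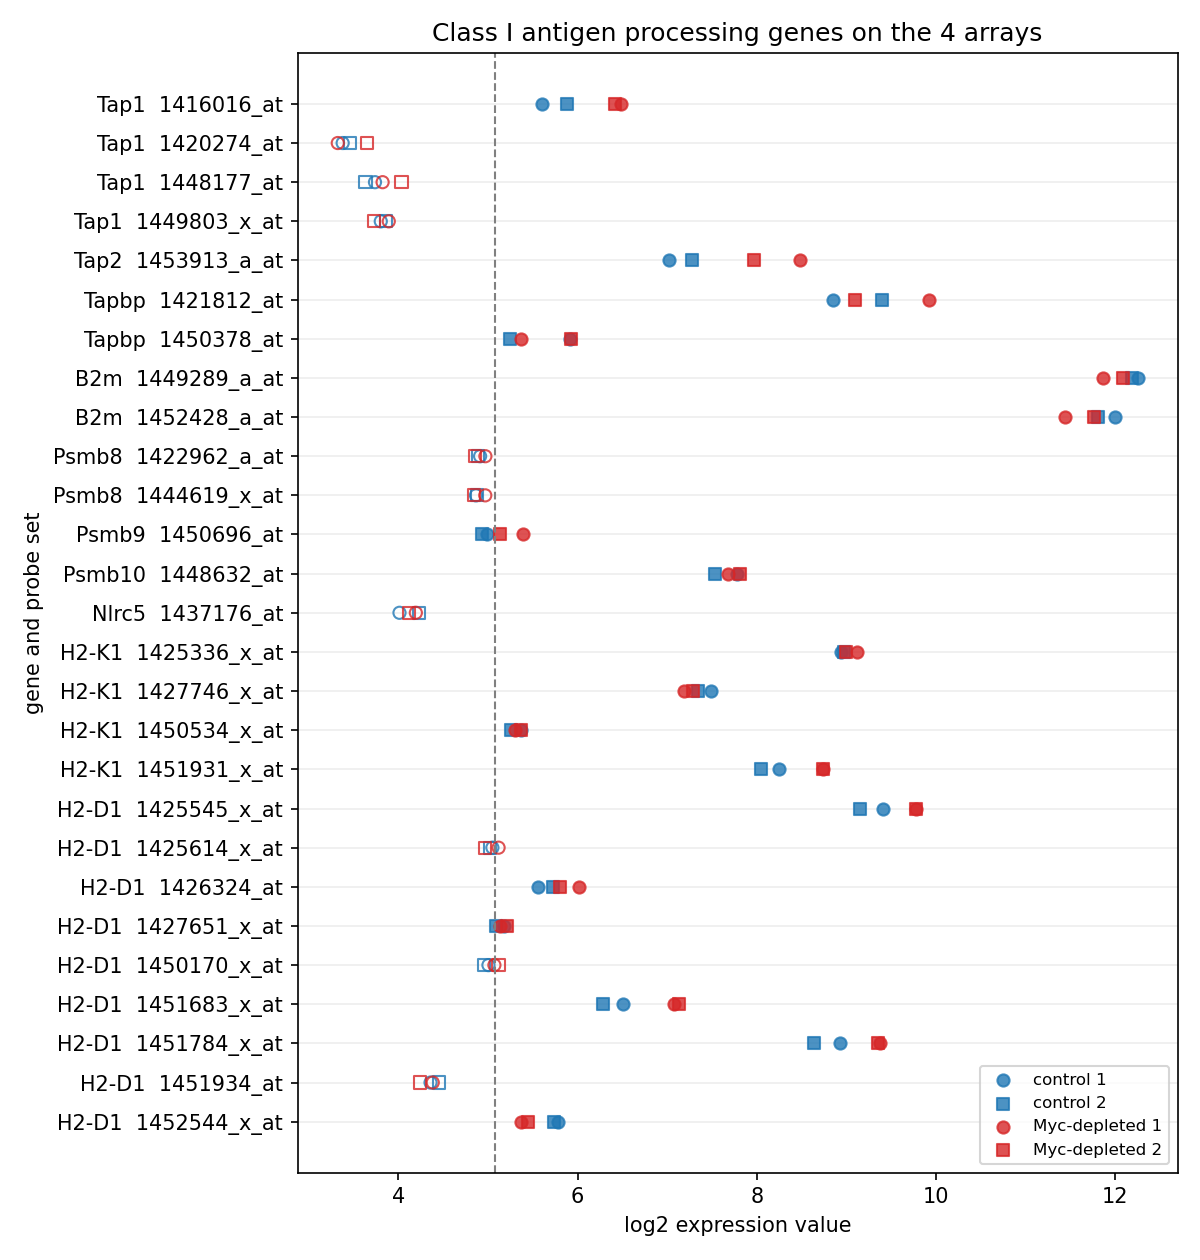
Log2 expression value (x axis) of each of the 27 class I probe sets (y axis) on the 4 arrays, blue for control and red for Myc-depleted, with open symbols for the 9 probe sets below the testing threshold of 5.08 (dashed line). Tap1 (1416016_at), Tap2, H2-K1 (1451931_x_at) and 3 bright H2-D1 probe sets show both red symbols to the right of both blue ones, and both B2m sets show them to the left.

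Counted by probe set, 9 of the 18 tested member probe sets read higher in Myc-depleted cells without overlap, against 22.5% of all probe sets tested, and 4 read lower, against 18.5%. That of Psmb9 is among the 9, although it was tested only through its Myc-depleted arrays. An unadjusted limma p under 0.05 was reached by 6 that were higher, against 5.63% of all probe sets, and by 1 that was lower, against 4.46%. The adjusted p-values of these 7 ran from 0.350 to 0.461, and 0 of the 18 passed. These probe sets are not independent, because 10 of them read the 2 heavy chains.

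Counted by gene, with the brightest probe set standing for each, 5 of all 10 members (Tap1, Tap2, Psmb9, H2-K1 and H2-D1) were higher without overlap, where 25.6% of all 18,193 genes were, and 1 (B2m) was lower, where 17.9% were. After low values were left out, 8 members remained, and the same counts stood beside 26.6% and 20.8% of 12,589 genes. At an unadjusted p under 0.05 there were 3 higher (Tap1, Tap2 and H2-D1), against 6.96% of genes, and 0 lower, against 5.23%. The median difference of the 8 was 0.34, while that of all genes tested was 0.02 with quartiles of -0.13 and 0.17. Psmb9 was tested only through its Myc-depleted arrays, so this median favours higher values, and it was 0.20 over all 10 members. It was 0.16 without Myc-depleted 1 and 0.47 without Myc-depleted 2, and it was 0.19 in the low spike-in pair and 0.49 in the high pair. With 2 arrays against 2, an exact permutation test of a single value cannot give a two-sided p below 0.333.

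**Figure D3:**
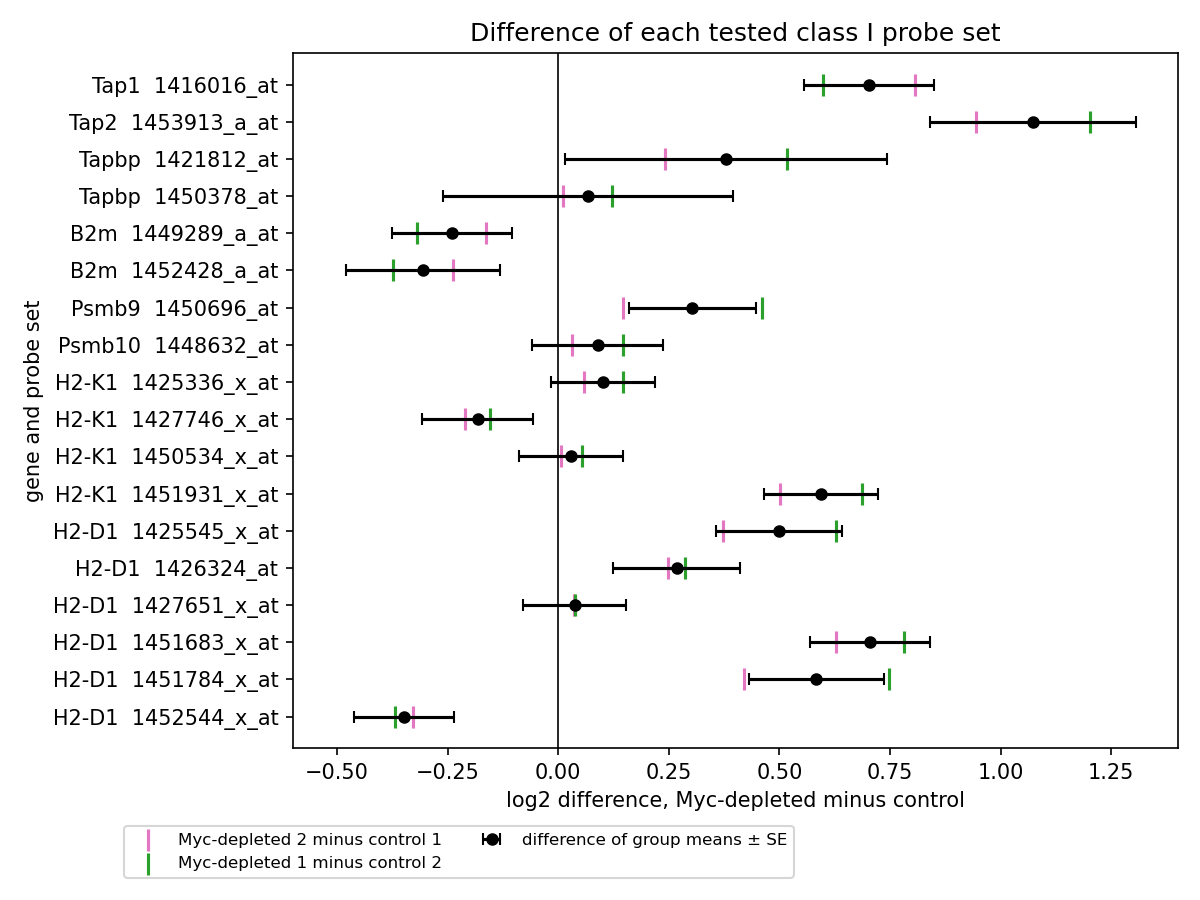
Log2 difference, Myc-depleted minus control (x axis), of the 18 tested class I probe sets; black points with bars are the difference of group means ± SE from limma, and coloured ticks are the differences within the spike-in pairs. Tap2 lies farthest to the right at 1.07, both B2m sets lie left of 0, and the heavy chain sets span -0.35 to 0.70.

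A list of genes that load and trim peptides beside the members read mostly lower in Myc-depleted cells. It also holds general genes of the endoplasmic reticulum (Hspa5, Ero1a, Sec61a1 and Sec61b), which are among the lower ones. Of the 9 tested genes of this list, 7 were lower without overlap, against 20.8% of all genes. None was higher without overlap, against 26.6%, and the median difference was -0.14. That median lay between -0.18 and -0.12 in each of the 4 comparisons of a single Myc-depleted array with a single control array. Calr (difference 0.02, other probe sets 0.01 and -0.06) and Tapbpl (0.18 on its tested probe set) had overlapping groups. Erap1, the aminopeptidase that trims peptides in the endoplasmic reticulum, read 6.59 and 6.77 in control cells and 6.42 and 6.08 in Myc-depleted cells, a difference of -0.42 ± 0.17 (SE, adjusted p = 0.54). Pdia3, the thiol oxidoreductase bound to tapasin, differed by -0.31 (adjusted p = 0.56). Hspa5, the general chaperone BiP, differed by -0.28 (adjusted p = 0.58), and Canx, the lectin chaperone calnexin, by -0.20 (adjusted p = 0.68). Other Canx probe sets gave -0.52 and 0.09, both with overlapping groups. These chaperones serve glycoproteins in general and not class I molecules alone, and 0 of the 9 passed the adjusted threshold or an unadjusted p under 0.05.

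Genes that activate or assemble the proteasome, listed with the standard subunits, were lower without overlap in 2 of 7 and higher in 0, against 20.8% and 26.6% of all genes (median 0.01). Psme3, the subunit of the nuclear activator PA28-gamma, differed by -0.54 ± 0.16 (SE, unadjusted p = 0.025, adjusted p = 0.43), with another probe set at -0.23. Psme1, a subunit of the interferon-inducible activator, differed by -0.28 (adjusted p = 0.68).

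Other class I heavy chains and their relatives had no shared direction, with 2 of 9 tested genes higher without overlap, 1 lower and a median of -0.04, against 26.6% and 20.8% of all genes higher and lower. Fcgrt, the heavy chain of the neonatal Fc receptor, which also pairs with B2m, read 9.28 and 9.63 in control cells and 10.26 and 9.92 in Myc-depleted cells, a difference of 0.63 ± 0.20 (SE, unadjusted p = 0.034, adjusted p = 0.46). Cd1d1, which presents lipids and also pairs with B2m, read 6.22 and 6.35 against 6.87 and 6.81, a difference of 0.55 ± 0.12 (SE, adjusted p = 0.38), and its second probe set gave 0.57. H2-M9, a non-classical gene, differed by -0.82 ± 0.32 (SE, adjusted p = 0.52), and its Myc-depleted mean of 4.81 lay below the testing threshold.

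Factors that bind class I promoters were higher without overlap in 4 of 17 tested genes and lower in 2, against 26.6% and 20.8% of all genes, with a median of 0.00. Stat2, a subunit of the complex that binds interferon response elements, read 5.43 and 5.35 in control cells and 5.70 and 6.01 in Myc-depleted cells, a difference of 0.46 ± 0.16 (SE, unadjusted p = 0.042, adjusted p = 0.48). Its second probe set gave 0.32 with overlapping groups. Irf9, the DNA-binding partner of Stat2, differed by 0.00, and Irf1, which binds the same elements, read 8.01 and 7.98 against 8.17 and 8.11 (difference 0.14, adjusted p = 0.75). Of the RFX complex, Rfx5 differed by 0.20 (adjusted p = 0.63) and Rfxank by -0.32 (adjusted p = 0.74), with other Rfxank probe sets at -0.10 and 0.011, all with overlapping groups. Rfxap differed by -0.21 on one probe set and 0.37 on the other, so neither partner had a settled direction. Stat3, a transducer of cytokine signals, differed by 0.34, and Creb1, which binds cyclic AMP response elements, by -0.52, with adjusted p-values of 0.61 and 0.60. Nfkb1 is not analysed here.

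Interferon receptors, their kinases and inhibitors were higher without overlap in 3 of 9 tested genes and lower in 1, against 26.6% and 20.8% of all genes, with a median of 0.19 that was -0.04 in the low pair and 0.27 in the high pair. Ifngr1, the ligand-binding chain of the interferon-gamma receptor, read 8.06 and 8.23 in control cells and 8.50 and 8.79 in Myc-depleted cells, a difference of 0.50 ± 0.16 (SE, unadjusted p = 0.037, adjusted p = 0.46) that was 0.74 in the low pair and 0.27 in the high pair. The other chain of this receptor, Ifngr2, differed by -0.44, and by -0.02 on a second probe set, both with overlapping groups. Tyk2, a kinase of the type I receptor, differed by 0.35 ± 0.12 (SE, adjusted p = 0.49). Of the chains of that receptor, Ifnar1 differed by -0.23 and Ifnar2 by 0.21.

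Interferon-inducible genes outside the class I pathway were higher without overlap in 8 of 19 tested genes and lower in 0, against 26.6% and 20.8% of all genes. Their median difference was 0.19, with 0.11 in the low pair and 0.22 in the high pair, and it ran from 0.05 to 0.32 over the 4 comparisons of single arrays. Ifit3, an antiviral protein that binds its relative Ifit1, read 6.11 and 5.67 in control cells and 6.997 and 6.53 in Myc-depleted cells, a difference of 0.88 ± 0.25 (SE), or 1.83-fold (unadjusted p = 0.025, adjusted p = 0.43). Both Myc-depleted arrays lay above both controls, by 1.33 in the high pair and 0.42 in the low pair. Ifit1, which binds foreign RNA, differed by 0.45, the antiviral GTPase Mx2 by 0.29 and Xaf1 by 0.47, with adjusted p-values from 0.51 to 0.57. Ifit3 was the only gene of this list at an unadjusted p under 0.05.

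Class II genes, which present peptides taken up from outside, were mostly dim. Of 9 genes with a probe set of their own, 6 lay below the testing threshold, among them the transactivator Ciita, the invariant chain Cd74, H2-Aa and H2-Ab1. The 3 tested were H2-Ea (difference 0.13), H2-Eb1 (-0.01) and H2-DMa (0.00). Of these, 1 (H2-Ea) was higher without overlap, against 26.6% of all genes.

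**Figure D4:**
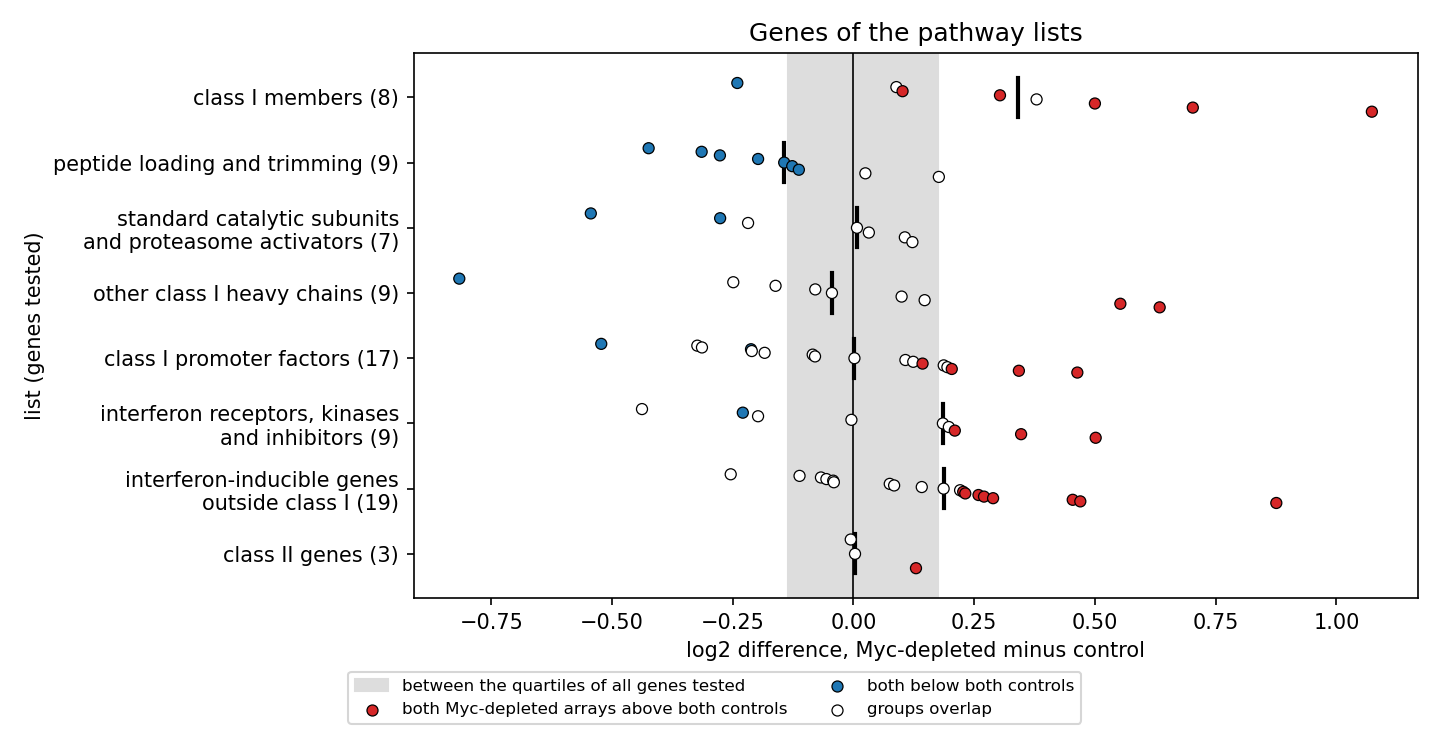
Log2 difference, Myc-depleted minus control (x axis), of each tested gene in 8 lists, with black bars at the list medians and the grey band over the range between the quartiles of all genes tested; red points are higher and blue points lower without overlap. The class I members have a median of 0.34, the peptide loading list lies mostly left of 0 with a median of -0.14, and the interferon-inducible list holds 8 red points and no blue one.

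Immune cells carry much class I RNA, and so the markers of other cell types were read beside the members. Of 13 leukocyte markers, 7 lay below the testing threshold, with the defining Ptprc (CD45), Tyrobp and Cd52 among them. The summed linear level of the list was 442 and 452 in control cells and 463 and 616 in Myc-depleted cells. Lyz2, a myeloid lysozyme that lung epithelium also makes, read 5.27 and 5.88 against 5.71 and 7.71 and was high on Myc-depleted 2. Without Lyz2 the summed levels were 403 and 393 in control cells and 411 and 407 in Myc-depleted cells. Of 7 endothelial markers 6 lay below the threshold, with summed levels of 169 and 159 against 175 and 166.

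Most markers of the labelled cell type lay below the testing threshold. Of 11 lung epithelial markers, 8 lay below the threshold, and these include Scgb1a1 and Sftpc, the club cell and alveolar genes whose joint expression defines BASCs. By staining, the study found the proteins of both (CCA and SP-C) in most colonies, also after multiple passages. It also reports their RNA, with that of Aquaporin, as unchanged in its array data. Summed levels of the epithelial list were 406 and 400 in control cells and 496 and 472 in Myc-depleted cells. Epcam read 6.89 and 7.12 against 7.80 and 7.52 on 1 probe set, while the other lay below the threshold. Without Epcam the summed levels were 287 and 260 in control cells and 273 and 288 in Myc-depleted cells. Aqp5, a water channel of alveolar type I cells, read 5.28 and 5.13 against 5.07 and 5.11, close to the threshold (limma adjusted p = 0.84). Of the 3 tested markers, 1 (Epcam) was higher and 1 (Aqp5) lower without overlap, against 26.6% and 20.8% of all genes. Below the threshold, the brightest probe sets of Sftpc, Scgb1a1 and Foxj1 read higher without overlap and that of Cdh1 lower. With no filter on low values, 25.6% of all genes were higher without overlap and 17.9% lower. The sort marker Cd34 was below the threshold on all arrays, at 3.85 and 3.97 against 3.66 and 3.76, and Ly6a (Sca-1) is not analysed here. Fibroblast and mesenchymal markers were bright, with 1 of 10 below the threshold and summed levels of 78302 and 88846 in control cells and 90661 and 75265 in Myc-depleted cells. Of the 9 tested, 3 were higher and 2 lower without overlap, against 26.6% and 20.8% of all genes, with a median difference of 0.02. The higher were Pdgfra (1.23), Dcn (0.67) and Pdgfrb (0.44), and the lower were Thy1 (-1.26) and Vim (-0.09). Other Vim probe sets gave 0.16 and 0.07 with overlapping groups. The part of these cells, or of irradiated feeder fibroblasts, in the class I readings was not tested.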

How the data were processed

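RNA of 4 samples (2 control, 2 Myc-depleted) had been read on Affymetrix mouse expression arrays. The authors' deposited values are on a log2 scale and were made in Partek 6.4. The methods name RMA, whereas the submitters' processing notes name GCRMA, and which was used was not settled; it matters most for dim probe sets. The number of arrays limits the precision. Groups came from the labels.

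Of 45,101 probe sets, 64 controls were left out. Probe sets with a mean under the 40th percentile (log2 5.08) were not tested, which left 27,022. The test was limma 3.58.1 (R 4.3.3) on deposited values, with Benjamini-Hochberg adjustment over all 27,022 and a threshold of 0.05, after the code was tested on simulated data. A gene was represented by its brightest tested probe set that named it alone. SEs are those of limma, which combines a probe set's spread over 2 arrays per group with the spread over all probe sets tested. Gene symbols came from the platform annotation. Promoter windows came from RefSeq (GRCm38.p6), and 1 of the motifs searched is not reported here.

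The members and lists were chosen with earlier results of these data known. Named genes were every member with all its probe sets, Myc, up to 4 genes of each other list with the smallest unadjusted p, the partners of Rfx5, Psmb5 to Psmb7, Irf1, Stat2 and Irf9. Calr, Tapbpl and Ifngr2 were named in addition, after their values were seen. Another tested probe set is given where it differed in sign or by more than 0.5. The cell type markers were read for their levels, with the examples chosen after their values were seen. No pattern was ranked by likeness, since 4 arrays in 2 groups allow none. Same-numbered arrays were checked for pairing, and their deviations from the group means correlated at -0.77, so the numbers were not used as pairs. Alternatives were quantile normalization, a floor, other filters, the variance trend, the methods' ANOVA, blocks, other ways to summarise a gene and leaving out each array.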

Additional observations from a re-analysis of the deposited data

How the results depend on the processing

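The number of probe sets called was 0 under every alternative run, except that fitting the spike-in pairs as a block gave 21. Same-numbered arrays deviated in opposite directions (correlation -0.77), and the crossed pairing, added after the data were seen, joins the same arrays as the spike-in pairs, so it gave the same 21 calls and 5655 probe sets at an unadjusted p under 0.05. That count was 2726 as reported and 1009 with the replicate block, which left 0 calls, and it ran from 705 to 3765 when 1 array was left out. The cause was not tested. Of 8 tested members, 5 were higher without overlap, against 26.6% of all genes tested. A filter at the 60th percentile left 6 members with 3 higher. Taking every tested probe set apart, with the 1 shared by H2-K1 and H2-D1, gave 9 of 19, against 22.5% of all probe sets tested. Psmb9, which was tested only through its Myc-depleted arrays, counts among the 5 and among the 9. The members' median of 0.34 was 0.20 with no filter on low values, 0.10 with every probe set apart, 0.19 within the low spike-in pair, 0.49 within the high pair, and from 0.16 to 0.47 with 1 array left out. Of 118 differences of single members under alternatives, 116 kept their direction and their side of the threshold, with adjusted p-values from 0.078 (Tap2 with the spike-in block) to 1.0. With 1 array left out, Tapbp ran from -0.032 (without Myc-depleted 1) to 0.79 and Psmb10 from -0.036 (without control 2) to 0.21, so both changed direction. The background light of dim probe sets limits Psmb8, Psmb9 and Nlrc5 most.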

Other observations

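Several probe sets of the loading genes followed the spike-in pairs across the arrays and not the groups. A probe set of Sec61a1, a channel subunit of the endoplasmic reticulum, read 9.05 on control 1 and 8.64 on Myc-depleted 2, against 6.44 on control 2 and 5.11 on Myc-depleted 1, while the brightest Sec61a1 probe set stayed between 12.3 and 12.5 on all 4 arrays. Probe sets of Ero1a, an oxidase of the same compartment, also differed among themselves: the brightest gave a difference of -0.11 (adjusted p = 0.82 in limma) and another gave -0.63 ± 0.11 (SE, unadjusted p = 0.005, adjusted p = 0.34), with readings of 10.05 and 10.06 in control cells and 9.38 and 9.48 in Myc-depleted cells. These genes were picked after their values were seen.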
